A study of Mus musculus with 48 samples.

Results

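The RNAs described here are 9 transcripts that work in the nucleus or inside mitochondria: the nuclear RNAs Rn7sk, Rpph1, Malat1 and Snhg11, and the mitochondrially encoded RNAs mt-Rnr1, mt-Rnr2, mt-Co1, mt-Cytb and mt-Nd5. They were chosen by name from the 51 genes in the authors' deposited table of wild-type (WT) Sync-TRAP pull-down (IP) against WT input, where all 9 are lower in IP. Every gene in that table has an adjusted p below 0.05, so the IP and input values chose the 9 RNAs and are given below as a description, with no test. Each of the 9 was lower in every WT IP library than in every WT input library, by 2.90-fold (mt-Nd5) to 14-fold (Rn7sk) as means of log2 values. Together they took 1.78% ± 0.926 of the normalised reads in IP and 8.78% ± 0.466 in input (SD, n = 3 each). In a separate set of cerebella, Snhg11 was 2.22-fold higher in Chd4 conditional knockout (cKO) mice than in WT mice, and 3 of the 9 RNAs were listed as differing between those genotypes, where 20.3% of all features tested were listed.

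The study examined the mouse cerebellum and the chromatin remodelling ATPase Chd4. TRAP, translating ribosome affinity purification, pulls tagged ribosomes out of chosen cells, and the RNA that comes with them is sequenced beside RNA of the whole lysate, the input. The groups used here were 3 IP libraries of ribosome-bound RNA from Chd4 cKO cerebella, 3 IP libraries from WT cerebella and 3 input libraries from WT cerebella, all at postnatal day 12 and 6 days after electroporation; 4 Chd4 cKO and 4 WT libraries at days 27 to 28; and 4 libraries from rotarod-trained mice and 4 from mice at rest in the home cage, all WT, also at days 27 to 28. The labels name neither the ribosome tag, the electroporated construct, the Cre driver of the cKO, sex nor strain, and do not say whether libraries were pooled from several animals. The Sync-TRAP RNA was amplified with the Ovation RNA-Seq System V2, whereas the RNA of days 27 to 28 was reverse-transcribed from oligo-dT primers, which favour RNAs with a poly(A) tail.

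Most protein-coding mRNA leaves the nucleus and is read by cytosolic ribosomes, but some RNAs never do. Rn7sk is the scaffold of the nuclear particle that holds the elongation kinase P-TEFb inactive, Rpph1 is the catalytic RNA of nuclear RNase P, which trims transfer RNA precursors, Malat1 is a long noncoding RNA of nuclear speckles, and Snhg11 is a long noncoding RNA that hosts small nucleolar RNAs and is rich in neurons. Mitochondria copy their own small circular genome and translate its mRNAs on their own ribosomes, which contain the 2 rRNAs mt-Rnr1 and mt-Rnr2. The deposited table gives Snhg11 the class of a protein-coding gene, while RefSeq lists it as a long noncoding RNA.

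Promoter sequence was held for 2 of the 9 genes, Snhg11 and Malat1, from RefSeq on build GRCm38.p6. They are shown because both are nuclear long noncoding RNAs that were lower in IP, but only Snhg11 was listed as differing between genotypes of the chromatin remodeller. Each run is 300 bases, 250 before and 50 after the annotated start, 5′ to 3′ on the strand of the gene, and the capitals mark each CG, the dinucleotide that is the main target of DNA methylation. The Snhg11 promoter lies at chr2:158375463-158375762 on the plus strand and the Malat1 promoter at chr19:5802623-5802922 on the minus strand.
Snhg11: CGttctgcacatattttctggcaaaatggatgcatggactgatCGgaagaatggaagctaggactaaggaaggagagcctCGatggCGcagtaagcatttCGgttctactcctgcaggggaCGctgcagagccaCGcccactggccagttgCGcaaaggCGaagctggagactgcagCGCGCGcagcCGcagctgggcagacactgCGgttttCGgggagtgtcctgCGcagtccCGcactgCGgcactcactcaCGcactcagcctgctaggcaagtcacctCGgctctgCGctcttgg
Malat1: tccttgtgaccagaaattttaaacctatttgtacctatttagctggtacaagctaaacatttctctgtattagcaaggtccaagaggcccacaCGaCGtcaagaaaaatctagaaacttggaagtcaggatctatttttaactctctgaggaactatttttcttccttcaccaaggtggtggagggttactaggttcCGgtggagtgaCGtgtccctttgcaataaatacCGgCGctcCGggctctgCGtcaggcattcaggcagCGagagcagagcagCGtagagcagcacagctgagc
CG was the only motif searched, and it reads the same on both strands. The Snhg11 window holds 21 CG, a number reached or passed by 24.8% of the 32851 mouse promoter windows of that length. The Malat1 window holds 10, which 43.5% of windows reach or pass. These counts describe the letters only; the binding and methylation of either promoter were not analysed here.

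Levels are log2 CPM, where CPM is the read count of a gene scaled to the size of its library after the authors' normalisation, per the file headers. CPM is a share, so an RNA falls in CPM when other RNAs take more of a library. Library sizes recovered from the values of single reads were 23 to 27.1 M reads in the IP libraries, 13.7 to 15.6 M in the cKO and WT mRNA libraries and 13.7 to 16.7 M in the rotarod and rest libraries; the size of the input libraries could not be recovered. Levels of different genes are not compared, since no transcript lengths on the authors' build were used. The WT IP against input table lists 0.195% of about 26200 features tested, 0.0802% lower and 0.115% higher in IP. All 9 RNAs are among the 21 lower ones by construction, and the groups did not overlap for any of them, nor for 41 of the other 42 listed genes. The deposited adjusted p closest to the limit among them was 0.044, for mt-Nd5; the largest in the table was 0.0467, and genes just outside the limit have no deposited values.

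Rn7sk (ENSMUSG00000065037) had the largest fall of the 9. Its levels were 4.60, 5.09 and 5.04 log2 CPM in WT IP libraries 1, 2 and 3, against 7.88, 9.20 and 9.08 in WT input libraries 1, 2 and 3. The 3 IP libraries lie close together and input library 1 is the low one of its group, yet far above every IP library. The IP minus input difference was -3.81 ± 0.45 (SE, n = 3 each), or 14-fold lower in IP.

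Rpph1 (ENSMUSG00000092837) rested on about 195, 97 and 326 reads in WT IP libraries 1, 2 and 3. Its levels were 2.96, 1.89 and 3.60 log2 CPM in the WT IP libraries, against 5.55, 5.41 and 6.02 in the WT input libraries. IP library 2 is the low one, and the groups are separated by more than the range of either. The difference was -2.84 ± 0.53 (SE, n = 3 each), or 7.18-fold lower in IP. The genome holds near-identical copies of Rn7sk and of Rpph1, and how the authors' counting treated reads that match several places is not given in the sources used here.

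Malat1 (ENSMUSG00000092341) had levels of 13.45, 12.01 and 11.73 log2 CPM in the WT IP libraries, against 14.82, 14.44 and 14.73 in the WT input libraries. IP library 1 stands nearest to the input libraries, which lie within a narrow band. The difference was -2.27 ± 0.54 (SE, n = 3 each), or 4.81-fold lower in IP.

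Snhg11 (ENSMUSG00000044349) had levels of 6.56, 5.34 and 4.71 log2 CPM in the WT IP libraries, against 8.36, 7.66 and 7.59 in the WT input libraries. Library 1 was the highest in both groups. The difference was -2.33 ± 0.60 (SE, n = 3 each), or 5.04-fold lower in IP.

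mt-Rnr1 (ENSMUSG00000064337), the RNA of the small mitochondrial ribosomal subunit, had levels of 11.42, 12.89 and 10.52 log2 CPM in the WT IP libraries, against 13.84, 14.29 and 14.27 in the WT input libraries. mt-Rnr2 (ENSMUSG00000064339), the RNA of the large subunit, had 12.76, 13.56 and 11.02 log2 CPM in the WT IP libraries, against 15.43, 15.19 and 15.34 in the WT input libraries. For both rRNAs IP library 2 was the highest and IP library 3 the lowest, and every IP library lay below every input library. The differences were -2.52 ± 0.71 for mt-Rnr1 (5.75-fold lower in IP) and -2.87 ± 0.75 for mt-Rnr2 (7.33-fold lower in IP; SE, n = 3 each). Without IP library 2 the difference of mt-Rnr1 was -3.16, and without IP library 3 that of mt-Rnr2 was -2.16.

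mt-Co1 (ENSMUSG00000064351), which encodes a catalytic subunit of cytochrome c oxidase, had levels of 7.59, 8.49 and 6.13 log2 CPM in the WT IP libraries, against 9.47, 9.74 and 9.16 in the WT input libraries. The difference was -2.05 ± 0.71 (SE, n = 3 each), and -1.42 without IP library 3. mt-Cytb (ENSMUSG00000064370), which encodes cytochrome b of complex III, had levels of 7.40, 7.72 and 6.78 log2 CPM in the WT IP libraries, against 9.25, 9.45 and 9.31 in the WT input libraries. Its difference, -2.03 ± 0.28 (SE, n = 3 each), was close to that of mt-Co1 but with a smaller spread. mt-Nd5 (ENSMUSG00000064367), which encodes a proton-pumping subunit of complex I, had levels of 7.02, 7.66 and 6.59 log2 CPM in the WT IP libraries, against 8.25, 8.72 and 8.91 in the WT input libraries. Its difference of -1.54 ± 0.37 (SE, n = 3 each) was the smallest fall of the 9. Nuclear copies of mitochondrial DNA exist in the mouse genome, so reads of the 5 mitochondrial RNAs may be shared with such copies.

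**Figure D1:**
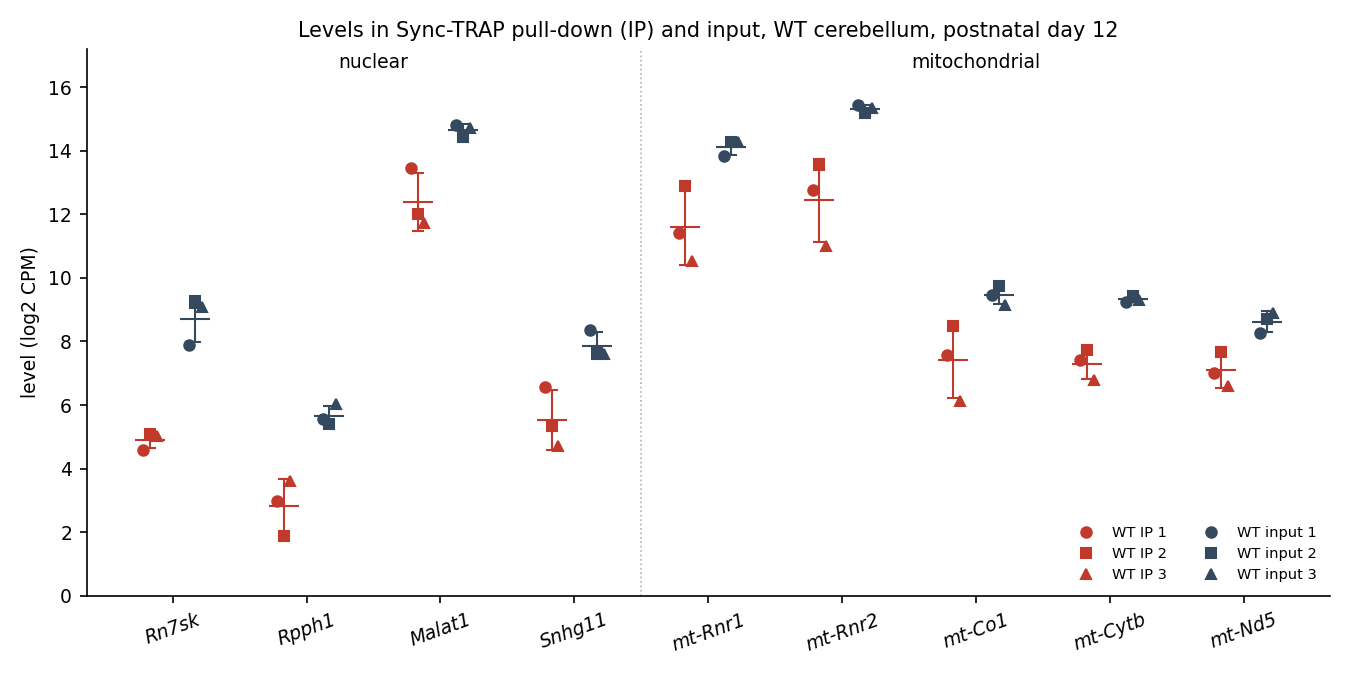
Level of each of the 9 RNAs (log2 CPM, vertical axis) in the 3 WT IP libraries (red, left of each pair) and the 3 WT input libraries (dark blue, right); the marker shape gives the library number, and horizontal lines with bars give the mean ± SD. Every IP point lies below every input point of its RNA, and the IP points of the mitochondrial RNAs are highest in library 2 and lowest in library 3.

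Summed over each group, the 4 nuclear RNAs took 1.13%, 0.421% and 0.347% of normalised reads in WT IP libraries 1, 2 and 3, against 2.94%, 2.31% and 2.79% in the WT input libraries. The 2 mitochondrial rRNAs took 0.966%, 1.97% and 0.354% in the WT IP libraries, against 5.88%, 5.73% and 6.14% in the WT input libraries. The 3 mitochondrial mRNAs took 0.0491%, 0.0772% and 0.0276% in the WT IP libraries, against 0.162%, 0.197% and 0.169% in the WT input libraries. Most of this share belonged to the 2 rRNAs and Malat1, which together made up 1.72% of normalised reads in IP on average and 8.53% in input. The mean share of the nuclear RNAs was 4.24-fold lower in IP than in input, and 6.99-fold lower without IP library 1. That of the mitochondrial RNAs was 5.30-fold lower in IP, and 8.72-fold lower without IP library 2. Less RNA on the tagged ribosomes, fewer cells of a kind and less RNA per cell cannot be told apart in these bulk samples.

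**Figure D2:**
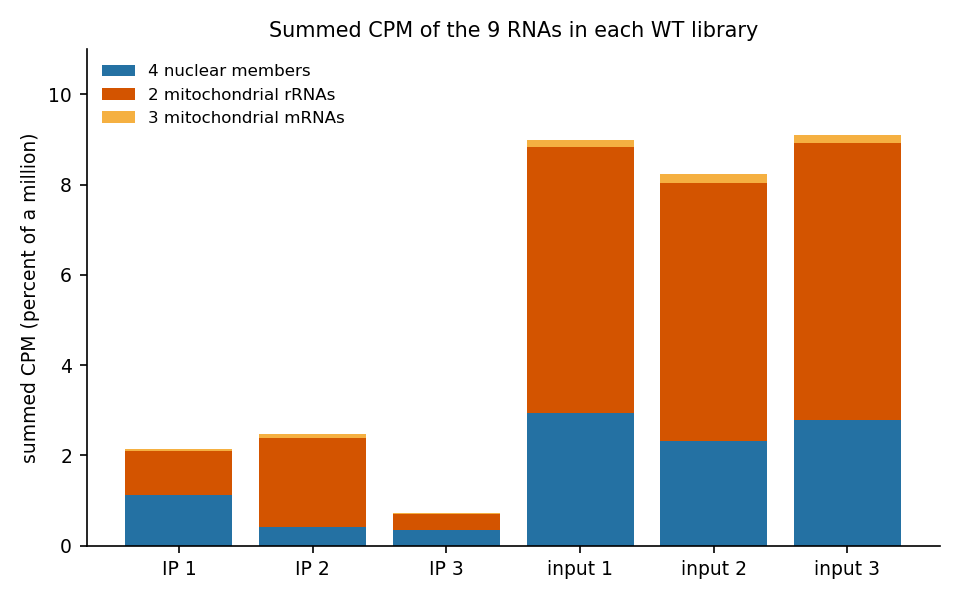
Summed CPM of the 4 nuclear RNAs (blue), 2 mitochondrial rRNAs (dark orange) and 3 mitochondrial mRNAs (light orange) as a percent of the normalised library (vertical axis), one stacked bar for each WT IP library (left) and WT input library (right). IP bars reach 0.729% to 2.47% and input bars 8.24% to 9.10%, and the nuclear and mitochondrial parts are largest in different IP libraries.

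The 2 kinds of RNA varied differently among the IP libraries. All 5 mitochondrial RNAs were highest in IP library 2, next in library 1 and lowest in library 3, an order shared by 4 of the 42 other listed genes. None of the 4 nuclear RNAs had that order. Malat1 and Snhg11 were highest in IP library 1 and lowest in IP library 3, Rpph1 was highest in IP library 3 and lowest in IP library 2, and Rn7sk was highest in IP library 2 and lowest in IP library 1. The spread was larger in IP than in input for 8 of the 9 RNAs, with SDs of 0.48 (mt-Cytb) to 1.30 (mt-Rnr2) in IP; Rn7sk was the exception, at 0.27 in IP and 0.73 in input. The same held for 29 of the 42 other listed genes.

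Among the mitochondrial RNAs, the mean level of the 2 rRNAs less that of the 3 mRNAs was 4.75, 5.27 and 4.27 on the log2 scale in the WT IP libraries, against 5.65, 5.44 and 5.68 in the WT input libraries. The groups do not overlap, and the IP minus input difference of this contrast was -0.82 ± 0.30 (SE, n = 3 each). Single pairs were less separate. mt-Rnr1 less mt-Cytb was 4.02, 5.17 and 3.74 in the WT IP libraries, against 4.59, 4.85 and 4.97 in the WT input libraries, so that IP library 2 lies above every input library (difference -0.49 ± 0.45). mt-Rnr2 less mt-Cytb was 5.35, 5.84 and 4.24 in the WT IP libraries, against 6.18, 5.74 and 6.04 in the WT input libraries, and these groups overlap too (difference -0.84 ± 0.49). The difference between mt-Rnr2 and mt-Rnr1 (-0.35 ± 0.33) and that between mt-Co1 and mt-Cytb (-0.02 ± 0.43) moved by about their SE or less. These contrasts use the values that chose the RNAs, and no test was run on them.

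Set against all 51 listed genes, whose median IP minus input difference was 0.87, the 9 RNAs had a median of -2.33. The nuclear RNAs had a median of -2.59 and the mitochondrial ones of -2.05. Another 12 genes were listed as lower in IP, with a median of -3.76 at the authors' prior count. At that prior count, the largest fall among them was that of Cd180, a receptor-like protein of immune cells, at -5.07 ± 0.38, and the smallest that of Sltm, a nuclear RNA-binding protein, at -1.52 ± 0.23 (SE, n = 3 each). The place of Cd180 and the median hold only there, since 5 of the 12 genes, Cstad among them, are at the value of 0 reads in every IP library and their falls have no upper limit. In all, 7 of the 12 genes are at levels below 0 log2 CPM in every IP library, where 1 read weighs heavily. Of those 12 genes, 6 were also listed in the table of cKO IP against WT IP, all higher in cKO IP, and none of the 9 RNAs was. Both tables use the same WT IP libraries. Apmap, an adipocyte membrane protein, had 3.52, 3.99 and 3.60 log2 CPM in cKO IP, against 0.66, 0.39 and 0.49 in WT IP, and 3.42, 3.45 and 3.98 in WT input.

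**Figure D3:**
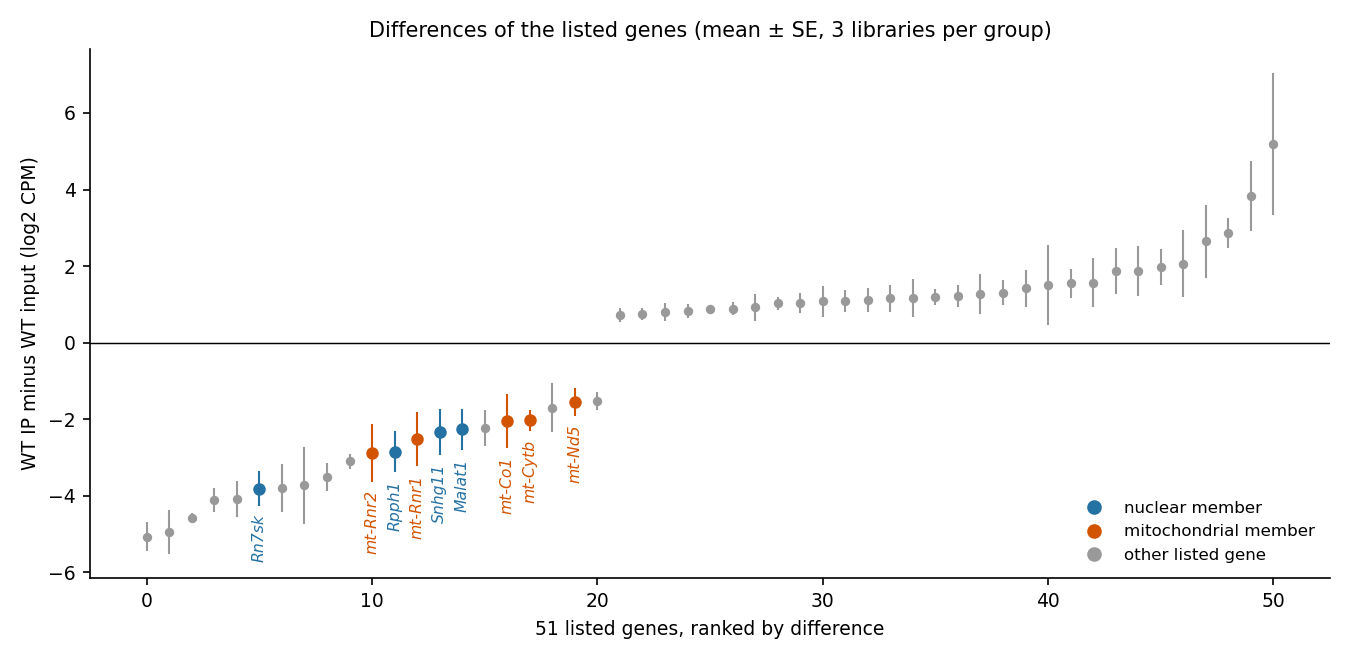
IP minus input difference (log2 CPM, mean ± SE, 3 WT libraries per group) of each of the 51 listed genes, ranked along the horizontal axis, with nuclear members in blue, mitochondrial members in orange and other listed genes in grey. The 9 RNAs lie between -3.81 and -1.54, and the other 12 lower genes between -5.07 and -1.52 at the authors' prior count.

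The listed genes most like each group over the 6 WT Sync-TRAP libraries were found by Pearson's r with the group's mean centred level, among the 42 other listed genes. For the nuclear RNAs these were Apmap (r = 0.990), Nupr1 (0.985), a small stress-induced chromatin protein, and Apoc1 (0.979), an apolipoprotein. Nupr1 and Apoc1 are at the value of 0 reads in every WT IP library, so their r holds no variation among those libraries. For the mitochondrial RNAs these were Fam21 (r = 0.942), a protein of the endosomal WASH complex, Hopx (0.936), a homeodomain protein of astroglia, and Sltm (0.919). Each mitochondrial RNA had an r of 0.970 to 0.989 with the mean of the other 4, and each nuclear RNA an r of 0.887 to 0.928 with the mean of the other 3. All of these genes were listed because IP and input differ, and the 6 libraries form 2 separate clusters, so the r values mostly carry that difference. Among the genes lower in IP there was also Gm23624, annotated only as a miscellaneous RNA, at 1.59, 2.28 and 3.79 log2 CPM in the WT IP libraries, against 4.74, 7.15 and 6.94 in the WT input libraries.

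Other genes of the same pathways were mostly not listed in the IP against input table, and unlisted genes have no values there. Beyond the members themselves, the table lists none of the other 10 mitochondrially encoded mRNAs, none of the 22 mitochondrial transfer RNAs, none of the other 6 small RNA polymerase III RNAs, none of 5 cytosolic rRNAs, and none of the other 13 nuclear long noncoding RNAs. It lists no protein of the particle that contains Rn7sk (0 of 7), none of RNase P (0 of 11) and no mitochondrial ribosomal protein (0 of 77). Of 15 nuclear speckle proteins, the scaffold proteins Srrm1 and Srrm2 were listed, both higher in IP. Srrm1 had 8.21, 7.51 and 8.54 log2 CPM in the WT IP libraries, against 6.98, 6.58 and 7.24 in the WT input libraries. Srrm2 had 10.36, 10.12 and 10.46 log2 CPM in the WT IP libraries, against 9.51, 9.05 and 9.29 in the WT input libraries. These are mRNAs of nuclear proteins, and for both the groups do not overlap.

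Few markers of cell types were listed with the 9 RNAs. Of 10 granule neuron markers the table lists Slc17a7, a vesicular glutamate transporter, at 7.66, 7.52 and 7.82 log2 CPM in the WT IP libraries, against 6.81, 6.48 and 6.13 in the WT input libraries. Of 54 markers of other cell types it lists only Hopx, an astroglial marker, at 15.0 to 44.7 CPM in the WT IP libraries, against 118 to 150 CPM in the WT input libraries. The other 53 are not listed and have no values, and the part of cell makeup in the fall of the 9 RNAs was not tested.

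None of the 9 RNAs was listed between cKO IP and WT IP, where the deposited table lists 0.145% of about 26200 features tested, or 38 genes (0.115% higher and 0.0305% lower in cKO IP). No gene of the 14 pathway lists was listed there either. The cKO IP libraries therefore hold no values for the 9 RNAs in the files used here. limma, with Benjamini-Hochberg adjustment over the features tested, called 0 of the 38 genes, with 31 at an unadjusted p under 0.05, whereas the authors' deposited test called all 38.

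The mRNA libraries of days 27 to 28 were not used to choose the 9 RNAs. The deposited table of cKO against WT lists 20.3% of about 27100 features tested, 11% higher and 9.29% lower in cKO. It lists 3 of the 9 RNAs, with Snhg11 and Rpph1 higher and mt-Cytb lower in cKO. limma on the deposited log2 values was fitted to these listed genes only, so no unlisted feature could be called. It used the same libraries as the authors' test that listed them. It called 13.2% of features at an adjusted p under 0.05 (8.17% higher and 5.04% lower in cKO), and Snhg11 alone of the 3. The targeted gene Chd4 was lower in cKO by 0.44 ± 0.06 on the log2 scale (limma, adjusted p = 0.00199).

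Snhg11 had levels of 11.44, 11.28, 11.44 and 11.53 log2 CPM in cKO libraries 1 to 4, against 10.24, 10.10, 10.43 and 10.33 in WT libraries 1 to 4. All 4 cKO libraries lie above all 4 WT libraries, and the gap between the groups exceeds the range within either. The difference was 1.15 ± 0.08 (limma SE, n = 4 each; adjusted p = 7.82e-05), or 2.22-fold higher in cKO. Snhg11, whose promoter window holds the 21 CG, is thus both one of the RNAs lower in WT IP at day 12 and one higher in cKO cerebellum at days 27 to 28, in separate libraries.

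Rpph1 had levels of 3.08, 3.05, 3.12 and 3.08 log2 CPM in the cKO libraries, against 2.48, 2.43, 1.97 and 3.38 in the WT libraries. These levels stand for 114 to 129 reads in each cKO library and 59 to 151 reads in each WT library. WT library 4 is above all cKO libraries, so the groups overlap. The difference was 0.52 ± 0.26 and did not pass (limma SE, n = 4 each; adjusted p = 0.387); without WT library 4 it was 0.79 and passed (adjusted p = 0.00788). The authors' deposited table gives 0.54 with an adjusted p of 0.0299. Rpph1 carries no poly(A) tail of the usual kind, and these libraries were primed with oligo-dT.

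mt-Cytb had levels of 12.76, 12.62, 12.55 and 12.47 log2 CPM in the cKO libraries, against 12.92, 12.94, 12.67 and 12.92 in the WT libraries. WT library 3 lies below cKO library 1, so the groups overlap, and the other 3 WT libraries lie above all cKO libraries. The difference was -0.26 ± 0.09 and did not pass (limma SE, n = 4 each; adjusted p = 0.10); without WT library 3 it was -0.33 and passed (adjusted p = 0.0371). The authors' deposited table gives -0.27 with an adjusted p of 0.00138.

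**Figure D4:**
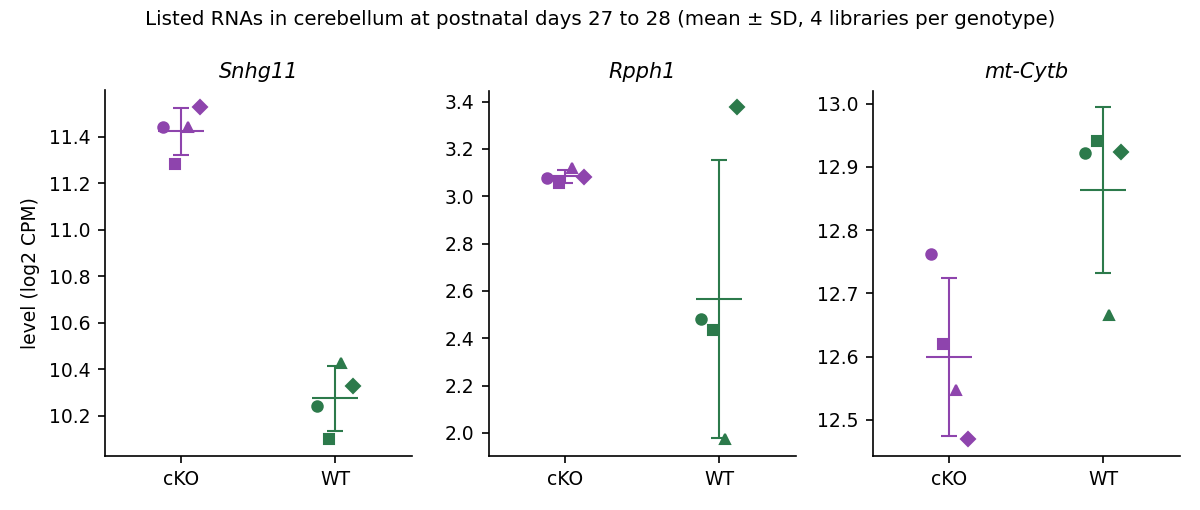
Levels (log2 CPM, vertical axes that do not start at 0 and differ in range) of Snhg11, Rpph1 and mt-Cytb in the 4 cKO (left, purple) and 4 WT (right, green) libraries of days 27 to 28; the marker shape gives the library number, and lines with bars give the mean ± SD. The Snhg11 groups are apart by more than their spread, while WT library 4 of Rpph1 and WT library 3 of mt-Cytb fall among or beyond the cKO libraries.

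Among other mitochondrially encoded RNAs, the deposited cKO table lists mt-Nd2 and mt-Nd4, subunits of complex I, and the transfer RNA mt-Tm, all on the lower side. mt-Nd2 had 11.74, 11.59, 11.43 and 11.29 log2 CPM in the cKO libraries, against 11.84, 11.84, 11.50 and 11.75 in the WT libraries. mt-Nd4 had 11.29, 11.27, 11.15 and 11.10 log2 CPM in the cKO libraries, against 11.55, 11.44, 11.26 and 11.41 in the WT libraries. The groups overlap for both. Their differences were -0.22 ± 0.12 and -0.21 ± 0.08, and that of mt-Tm -0.38 ± 0.14 (limma SE, n = 4 each; adjusted p = 0.450, 0.130 and 0.159). Of the 37 mitochondrially encoded RNAs, 4 were thus listed, where 20.3% of all features tested were, and limma called 0 of them. The median deposited log2 fold change of the 3 listed mRNAs was -0.23, against 0.20 over all listed genes. At an unadjusted p under 0.05, limma gave 3 of the 4, and 5243 of all 5508 listed genes, which the authors' test on the same libraries chose.

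Nuclear long noncoding RNAs were listed in both directions. Of 15, Snhg11 included, 4 were higher and 2 lower in the deposited cKO table, and limma called 3 higher and 1 lower. Across all features tested, 11% were listed higher and 9.29% lower, and limma called 8.17% higher and 5.04% lower. Miat, a nuclear long noncoding RNA of neurons, had 7.12, 6.73, 7.12 and 7.08 log2 CPM in the cKO libraries, against 4.47, 4.03, 4.20 and 4.29 in the WT libraries, with no overlap. It rose by 2.77 ± 0.12 (limma, adjusted p = 6.17e-06), the largest of the list and above Snhg11. Mirg, a microRNA host transcript of an imprinted cluster, rose by 0.53 ± 0.09 (limma, adjusted p = 0.00577), and Ftx, of the X-inactivation centre, fell by 0.32 ± 0.07 (limma, adjusted p = 0.0225). Malat1 was not listed, and Neat1, whose gene neighbours Malat1, was listed at -0.17 ± 0.15 without passing limma (adjusted p = 1). Of 20 host genes of small nucleolar RNAs, Snhg11 and Snhg14 rose and Snhg5 fell by limma, with differences of 0.29 ± 0.07 for Snhg14 (adjusted p = 0.0263) and -0.47 ± 0.10 for Snhg5 (adjusted p = 0.0189).

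Proteins that work with the 9 RNAs were listed in small numbers. Across all features tested, 11% were listed higher and 9.29% lower in cKO, and limma called 8.17% higher and 5.04% lower. Of 7 proteins of the Rn7sk particle and P-TEFb, 2 were listed, both lower; Mepce, which caps Rn7sk, fell by 0.36 ± 0.08 (limma, adjusted p = 0.0209), and Ccnt2 differed by -0.14 ± 0.07 without passing (limma, adjusted p = 0.469). Of 11 RNase P and RNase MRP proteins, Rpp25l was on the higher and Rpp38 on the lower side, and limma called neither. Of 77 mitochondrial ribosomal proteins, 9 were listed lower and 1 higher, and limma called 5 lower, among them Mrps36 (-0.42 ± 0.07, adjusted p = 0.00469) and Mrps17 (-0.37 ± 0.06, adjusted p = 0.00622). Of 20 proteins that copy, transcribe or process mitochondrial nucleic acids, limma called only Polrmt, the mitochondrial RNA polymerase, which fell by 0.34 ± 0.07 (adjusted p = 0.0184). Of 15 speckle proteins, limma called Prpf38b (-0.49 ± 0.06, adjusted p = 0.00125) and Son (-0.28 ± 0.05, adjusted p = 0.0102), both lower in cKO.

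Nuclear-encoded subunits of the respiratory chain were seldom listed. Of 36 subunits of complex I, 3 were listed higher and 1 lower, and limma called only Ndufb2, which rose by 0.33 ± 0.06 (adjusted p = 0.00756). Of 20 subunits of complexes III and IV, 2 were listed, both lower, and limma called only Cox7c, which fell by 0.68 ± 0.18 (adjusted p = 0.0375). The Cox7c groups overlap at a low level, 1.60 to 2.12 log2 CPM in the cKO libraries and 2.04 to 2.80 in the WT libraries. Across all features the table lists 20.3%, and the share listed of each of these subunit lists lies below that.

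Markers of other cells were listed between genotypes too. Of 54 markers of cells other than granule neurons, 25 were listed, all lower in cKO, of which limma called 10; the listed ones summed to 12929 to 13244 CPM in the cKO libraries, against 14435 to 16059 CPM in the WT libraries. Of 10 granule neuron markers, 2 were listed higher and 4 lower. Of 6 granule progenitor markers, counted in neither group, 2 were listed, both lower, and limma called both. Across all features tested, 11% were listed higher and 9.29% lower, and limma called 5.04% lower. The part of cell makeup in the differences of Snhg11, Rpph1 and mt-Cytb was not tested.

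None of the 9 RNAs was listed between rotarod-trained mice and mice at rest, where the deposited table lists 3.38% of about 26900 features tested, 2.06% higher and 1.31% lower after rotarod training. It lists 4 other mitochondrially encoded RNAs, all on the lower side, and limma called 0 of them, with all 4 at an unadjusted p under 0.05. So were 896 of the 908 genes listed there, since the authors' test on the same libraries chose them. mt-Tl1, a leucine transfer RNA, had 2.65, 2.35, 2.57 and 2.42 log2 CPM in the rotarod libraries, against 2.99, 3.0, 3.34 and 3.35 in the rest libraries. The groups do not overlap, and the difference was -0.67 ± 0.12 (limma SE, n = 4 each; adjusted p = 0.0515). mt-Tc, the cysteine transfer RNA, differed by -0.63 ± 0.12 (limma, adjusted p = 0.0765), mt-Nd1 by -0.43 ± 0.16 (limma, adjusted p = 0.751) and mt-Nd6 by -0.45 ± 0.18 (limma, adjusted p = 1).

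Among nuclear long noncoding RNAs, Neat1, the scaffold of paraspeckles, was the only one of 15 listed after rotarod training. It had 5.70, 5.67, 5.39 and 5.52 log2 CPM in the rotarod libraries, against 6.18, 6.07, 6.04 and 6.08 in the rest libraries. The groups do not overlap, and Neat1 fell by 0.52 ± 0.08 (limma SE, n = 4 each; adjusted p = 0.0389). Hexim2, which with Rn7sk inhibits P-TEFb, had 3.03, 2.88, 2.60 and 2.98 log2 CPM in the rotarod libraries, against 3.48, 3.47, 3.43 and 3.45 in the rest libraries. It fell by 0.58 ± 0.10 (limma, adjusted p = 0.0439), while Ccnt1, a cyclin of P-TEFb, differed by 0.25 ± 0.07 without passing (limma, adjusted p = 0.263).

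**Figure D5:**
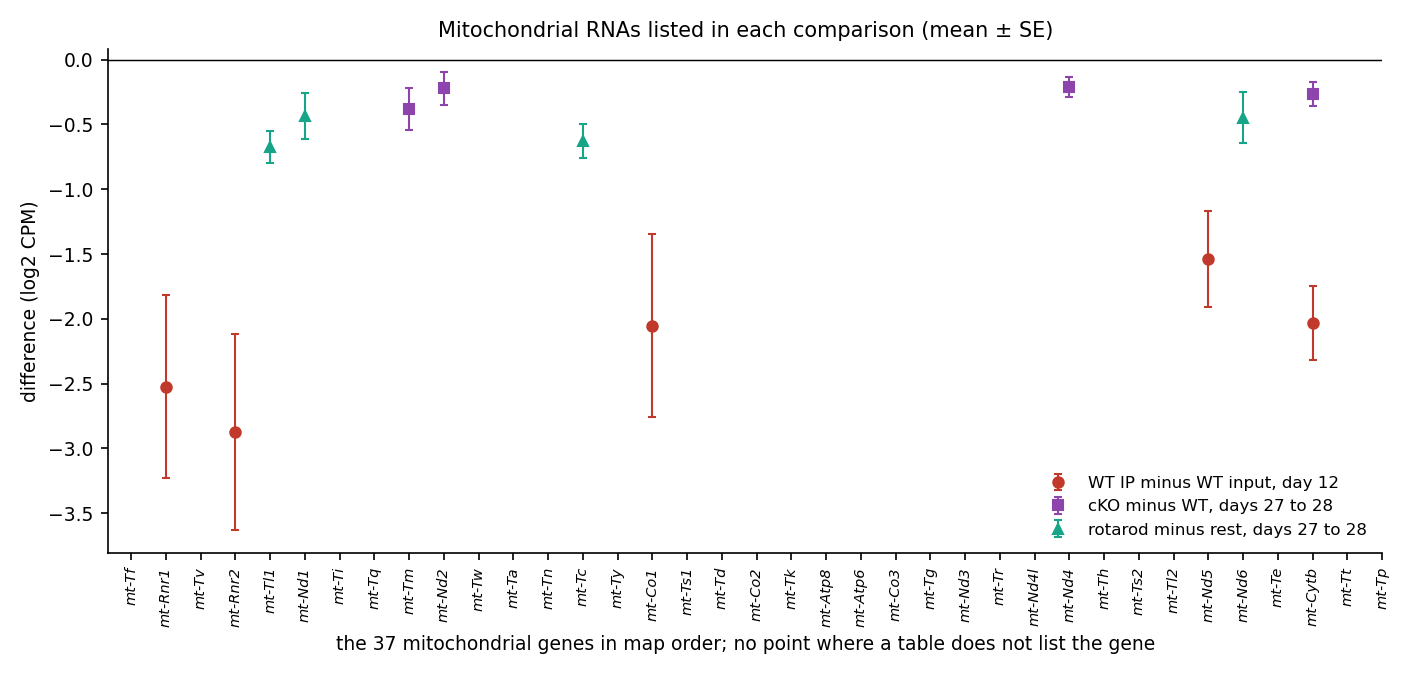
Differences (log2 CPM, mean ± SE) of mitochondrially encoded RNAs in the 3 comparisons that list any, with the 37 genes of the mitochondrial genome in map order along the horizontal axis; red circles give WT IP minus WT input, purple squares cKO minus WT and green triangles rotarod minus rest. All plotted values lie below 0, the IP values of -2.87 to -1.54 farthest, and only mt-Cytb has a value in more than 1 comparison; genes without a point are not listed.

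Along the mitochondrial genome in RefSeq order, mt-Rnr1 and mt-Rnr2 are genes 2 and 4, with a transfer RNA gene between them, mt-Co1 is gene 16, mt-Nd5 gene 32 and mt-Cytb gene 35. The genome is circular, so mt-Cytb and mt-Rnr1 have only transfer RNA genes between them across the start of the numbering. Genes between the RNAs lowered in IP are not listed.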

How the data were processed

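Per the submitters' processing notes, the authors used Bowtie, the mouse genome build mm9 and edgeR. The sources used here give no counting tool, version or filter. Each of the 4 deposited gene tables holds log2 CPM values per library, a log2 fold change, a likelihood-ratio score, p-values and adjusted p-values by the authors, per the file headers. Columns named ctrl were read as WT and those named cre as cKO, and rotarod and rest columns by group only. The tables list only genes with an adjusted p under 0.05, so count tests and tests of unlisted genes were not possible. The number of features tested was estimated as the median, over genes with untied adjusted p, of adjusted p times rank divided by p. Repeated lines were dropped.

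From these values, group means with SD or SE were computed (Python 3.11.15), and limma 3.58.1 (R 4.3.3, two-sided, Benjamini-Hochberg adjustment over the features tested, threshold 0.05) was fitted to the listed genes of each table that did not choose the RNAs. Its variance prior rests on called genes alone. The design foresaw values of all genes; the fit was tested on simulated data. Low values that are whole multiples of 1 read (within 0.1 read for 100% of values of up to 20 reads) gave library sizes; only 5 to 10 such values supported each IP size. The labels give replicates as separate samples and nothing more, so p-values measure the spread between these samples. The 9 RNAs, the 14 pathway lists and the 10 marker lists were chosen with earlier results of these data known. Named genes are the 9 RNAs, Chd4, listed genes of those lists (up to 4 a list in the mRNA tables, by size of change), the 3 genes most like each group, and the largest and smallest other falls; Gm23624 and Apmap's genotype values were added after values were seen. Alternatives were other pseudocounts (1 and 5 CPM), medians, centring, an abundance filter, a variance trend, a replicate block and leaving out each library. The 3 input cKO libraries, the 20 chromatin samples and 2 region lists were not analysed here.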

Additional observations from a re-analysis of the deposited data

Results flagged for a closer look

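Of the 6 groups of 4 libraries tested for a library far from the others (3 RNAs in cKO and WT mRNA libraries), 1 was flagged, and chance flags about 1 in 20. It was mt-Cytb in WT mRNA library 3, at 12.67 log2 CPM, while the other 3 WT libraries lie between 12.92 and 12.94; its gap to the nearest is 0.934 of the range of the group.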

How the results depend on the processing

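In WT IP against input the groups do not overlap for any of the 9 RNAs, which these values chose. Pseudocounts, medians and leaving out a library could therefore not reverse a direction, and centring reversed none. Of 99 alternative values, 95 stayed within the spread between replicates. That count includes the replicate block, which equals the main value of each RNA by arithmetic. It also includes leaving out each library, which by arithmetic cannot move a mean beyond that spread in groups this small. Only the pseudocounts, medians and centring could have done so. The other 4 were Rpph1 with 5 CPM added (-2.17) and Rn7sk, mt-Cytb and mt-Nd5 after centring each library on the median of the listed genes, which lies 0.65 higher in IP (-4.46, -2.68 and -2.19). Leaving out each library moved the median of the 9 between -2.79 and -1.93. For the cKO mRNA table, limma called 1 of the 9 RNAs, but 2 with 5 CPM added and 2 after centring, mt-Cytb being the second (adjusted p = 0.0483 and 0.0319). Leaving out each library gave 1 to 2, the second being mt-Cytb without WT library 3 and Rpph1 without WT library 4. The cause was not tested. Snhg11 passed under all 14 alternatives, with limma adjusted p of 9.71e-08 to 9.57e-04. With an absolute deposited log2 fold change of at least 1, only Snhg11 (1 of the 3 listed RNAs) remained in the cKO table.

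Same-numbered libraries did not deviate together in every pair (r of -6.44e-04 to 0.394 for WT IP and input, 0.0846 to 0.160 for cKO and WT). The same-numbered library was still the best match of WT IP libraries 1 and 3 and of cKO libraries 1, 2 and 3. The labels state no pairing, so the main results used none, and whether the numbers mark a shared batch was not tested. With the replicate block, limma called 2848 genes in the cKO table against 3579 without it, and 1 of the 9 RNAs in both. Taking differences of same-numbered IP and input libraries cannot move a mean difference, so the median, -2.33, was the same by arithmetic. Only the SE could change. For Snhg11 it was 0.31 by same-numbered libraries and 0.60 without, and for mt-Rnr2 it was 0.79 and 0.75. Alternatives for the cKO IP and rotarod tables gave no value, because neither lists any of the 9 RNAs. No paired analysis was possible because of this in either table, and the rotarod and rest columns share no number. Depth limits Rpph1 most, and unlisted genes may differ by amounts these tables do not show.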
